A study of Rattus norvegicus with 6 samples.

Results

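Enzymes that use glutathione, together with peroxiredoxins, thioredoxins, superoxide dismutases and catalase, were examined in the IM tip, the terminal part of the kidney inner medulla, of control and diabetic rats. Members were taken by name from the table of normalized counts. They were the glutathione S-transferases, microsomal glutathione S-transferases, glutathione peroxidases, peroxiredoxins, superoxide dismutases, features with names starting in Txn or Glrx, and a set of single genes (catalase, the glutathione synthesis and recycling enzymes, Nqo1, the heme oxygenases, Nfe2l2 and Keap1). The rule took 92 of the 27321 features in the table. Of these 92, 60 were single genes, 1 merged overlapping genes, and 31 spanned several genes. The names Gpx1, Srxn1 and Ggt1 matched no feature that was used, and these genes were not analysed here.

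The control group was 3 male Sprague-Dawley rats given citrate buffer vehicle in the tail vein. The STZ group was 3 male Sprague-Dawley rats given 62.5 mg/kg streptozotocin (STZ), which kills the insulin-producing cells of the pancreas and causes diabetes, by the same route. All rats were 3 months old and weighed about 150 g, the IM tip was taken on day 15 after the injection, and RNA of each rat gave 1 library. The series was made to ask how diabetes changes glycosylation genes in this tissue, and the antioxidant genes were measured in the same libraries.

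Glutathione is a tripeptide made by glutamate-cysteine ligase and glutathione synthetase. Transferases join it to electrophiles, peroxidases use it to reduce peroxides, and glutathione reductase returns the oxidized form with NADPH. Peroxiredoxins and thioredoxins form a parallel system, superoxide dismutases turn superoxide into hydrogen peroxide, and the transcription factor Nrf2 (Nfe2l2), held by Keap1, drives many of these genes through the antioxidant response element. The inner medulla is known for low oxygen and high osmolality, and its tip holds collecting ducts, thin limbs, vasa recta and interstitial cells.

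In STZ rats the transferases Gstm2 and Mgst3 rose, to 2.43 and 2.13 times their control means, and no member passed the test in the other direction. Gstm2 went from 5977 ± 505 to 14525 ± 2652 normalized counts and Mgst3 from 1196 ± 320 to 2547 ± 110 (mean ± SD, n = 3 each). A normalized count is the number of reads of a feature divided by the size factor of its library. Of the 92 members, 61 had a mean of at least 5 normalized counts over the 6 libraries and were tested with limma, and 31 were not tested. Both calls among these 61 members (3.28%) were higher in STZ, at an adjusted p under 0.05 over all 13486 features tested, of which 2.1% were called in either direction, 1.17% higher and 0.927% lower. At an unadjusted p under 0.05 there were 16 members (26.2%) and 1988 of all features tested (14.7%), which is also the background for the family counts at an unadjusted p below. The split of the calls depended on the setting, with 2 higher and 3 lower members for equal library totals, 3 and 3 for quantile normalization, 1 and 3 for no filter, and 2 and 2 for a minimum mean of 20.

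More members differed in every library without passing the test. In 18 of the 61 tested members (29.5%) the 3 STZ values all lay on one side of the 3 control values, against 20.3% of all features tested. The 11 with higher STZ values, against a background of 10.1%, were Gstm1, Gstm2, Gstm4, Gstm5, Gstt3, Mgst1, Mgst3, Gpx2, Glrx1, Gsr and Nqo1. The 7 with lower STZ values, against a background of 10.3%, were Gclc, Sod2, Txndc16, Gpx8, Gpx7, Prdx4 and Gsta1. The median log2 fold change was −0.05 over the 61 members and 0.01 over all features tested, with 27 members above 0 and 34 below. The log2 fold change compares STZ with control after 1 is added to each normalized count, which makes the change of low features look smaller than it is.

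**Figure D1:**
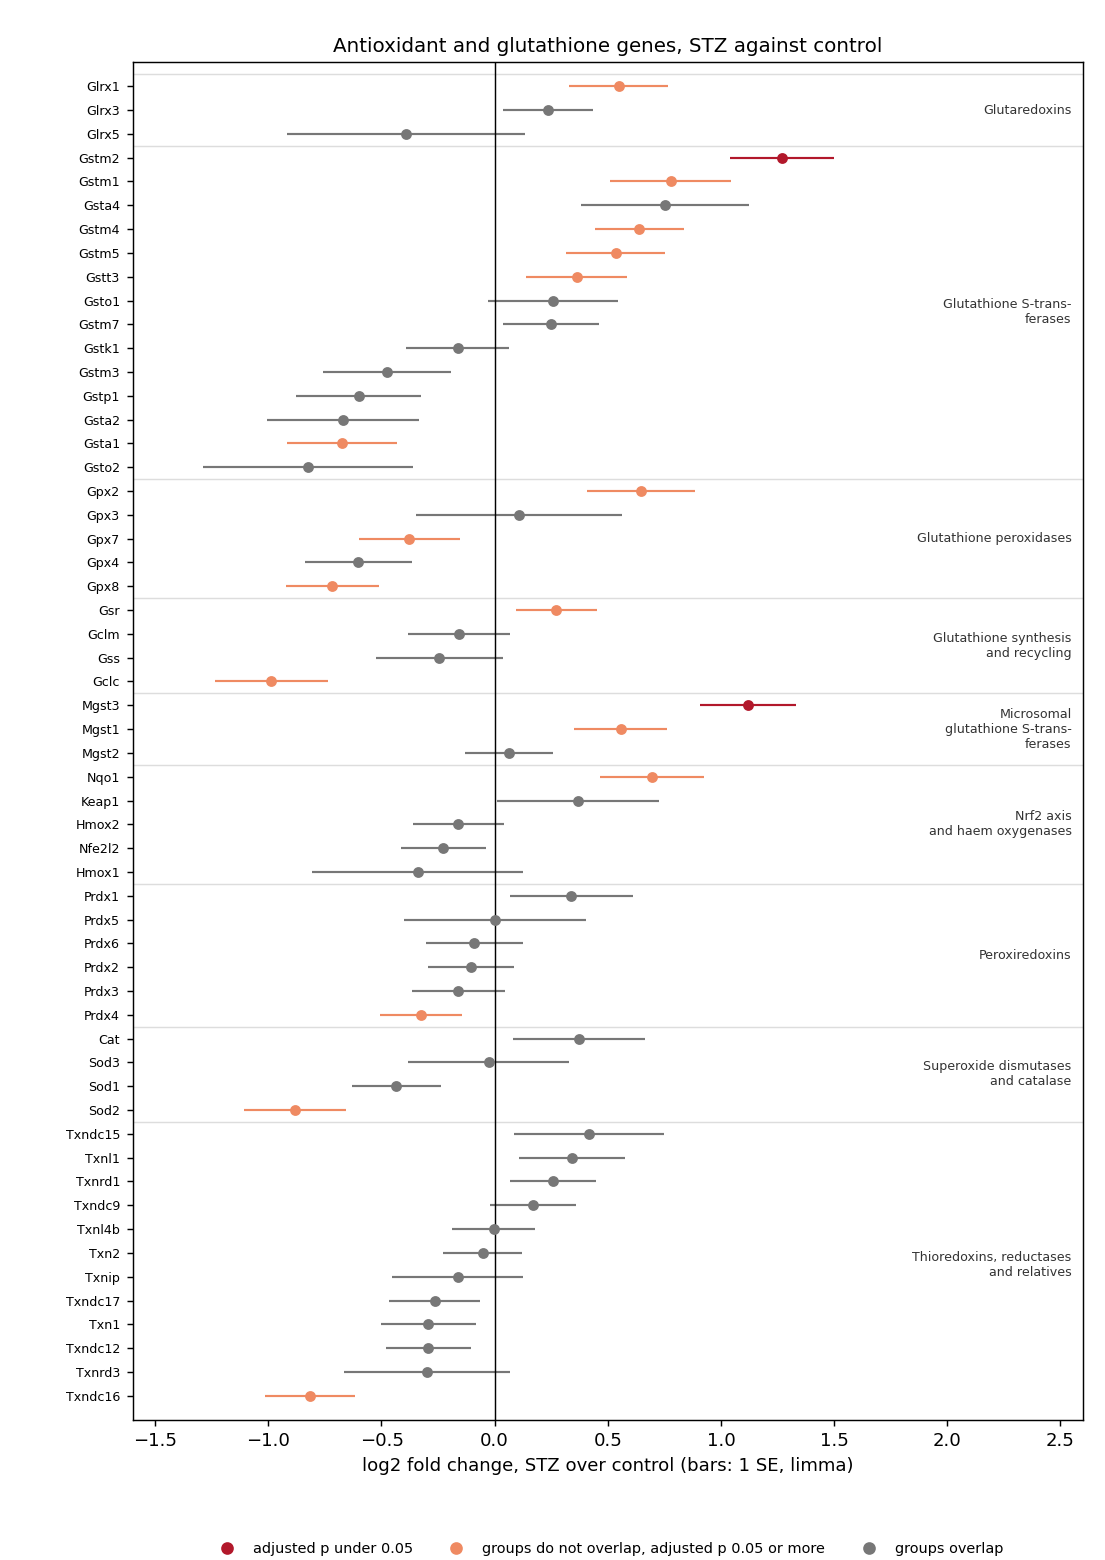
Log2 fold change of the 56 tested single-gene members (x axis, STZ over control, bars 1 SE from limma), grouped by enzyme family. Gstm2 and Mgst3, in dark red, are the 2 members past the threshold. Orange points are genes whose groups did not overlap but which did not pass, and grey points are genes whose groups overlapped.

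The libraries held between 3412311 and 5575171 reads on genes, and each read added between 0.763 and 1.11 to a normalized count. The column headers place the control libraries on a shared sequencing lane and each STZ library on a different lane of its own. Lane cannot be told apart from condition, nor from rat within the STZ group. Collecting duct markers were present in all libraries, with summed values of 33079 to 54948 in control and 43352 to 82239 in STZ, with 8 of 10 found. None of the 8 was called, but 6 had an unadjusted p under 0.05, 7 had a log2 fold change above 0 (median 0.76), and Aqp2, Scnn1b, Scnn1g and Krt8 lay wholly above and Hsd11b2 wholly below control. Of all features tested, 14.7% had an unadjusted p under 0.05 by limma, 20.3% had groups that did not overlap and 2.1% were called. These shares are also the background for the markers that follow. Markers of other cell types differed as well. For the thick ascending limb, with 4 of 6 markers found, the sums were 1103 to 1894 in control and 212 to 599 in STZ, and 2 of 3 tested (Umod and Egf) fell. For urothelium, with 5 of 7 found, the sums were 85.4 to 132 and 440.1 to 517, and 2 of 5 tested (Upk1b and Upk3a) rose. Upk3a made up most of the difference in the sum. For the proximal tubule, with 10 of 14 found, the sums were 331 to 588 and 183 to 273, and 1 of 8 tested (Kap) fell, which made up most of the difference in the sum, while 2 of the 8 had a log2 fold change above 0. For endothelium, with 7 of 8 found, the sums were 7062 to 9125 and 3904 to 4269. Of 7 tested, Emcn and Plvap fell and Vwf rose. Emcn made up most of the difference in the sum, and 3 of the 7 had a log2 fold change above 0. For fibroblasts and smooth muscle, with 7 of 9 found, the sums were 1075 to 1419 and 2045 to 2320, and 2 of 7 tested (Pdgfra and Tagln) rose. Pdgfra and Tagln made up most of the difference in the sum. Of the 7, 3 had a log2 fold change below 0, and the median was 0.05. For red blood cells, with 6 of 10 found, the sums were 4376 to 9181 and 2126 to 5269, and 1 of 6 tested (Slc4a1) fell. The groups overlapped in the other 5, which include all the globin genes, and Epb42 had a log2 fold change above 0. The other 5 of the 6 tested, Slc4a1 and the globin genes, had a log2 fold change below 0, and the median of the 6 was −0.68. Whether the content of red blood cells differed was not tested. For macrophages and leukocytes, with 10 of 12 found, the sums were 1246 to 4668 and 2596 to 4484, and none of 10 tested was called (1 at an unadjusted p under 0.05). No marker found was at 0 in all 6 libraries. The part of these cell types in the values of the antioxidant genes was not tested, and in whole tissue fewer cells of a type and less RNA per cell cannot be told apart.

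Glutathione synthesis starts with glutamate-cysteine ligase, whose catalytic subunit is Gclc and whose modifier subunit is Gclm. Gclc (chr8:82724428-82762845 on rn4) measured 199, 261 and 384 normalized counts in the control rats and 158, 117 and 138 in the STZ rats, in the order of their replicate numbers, as for all genes below. All STZ values lay below all control values, and the control values spread more widely than those of STZ. The log2 fold change was −0.99 (SE 0.25), with an adjusted p of 0.0747 by limma, and Gclc passed the threshold under 4 of 17 other settings. Gclm measured 94.3, 66.4 and 100.2 in control and 76.1, 82.1 and 72.3 in STZ, and its groups overlapped (log2 fold change −0.16, SE 0.23, adjusted p = 0.858). The ratio of Gclc to Gclm within a library, which does not depend on the scaling, was 2.11, 3.93 and 3.83 in control and 2.07, 1.42 and 1.90 in STZ. These ratios did not overlap, but control replicate 1 and STZ replicate 1 were close to each other. This ratio and those that follow were chosen after the values were seen and are given without a test.

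Glutathione synthetase (Gss), which adds the glycine, measured 91.2, 115 and 84.6 in control and 123, 58.4 and 74.3 in STZ, with groups that overlapped. Glutathione reductase (Gsr), which restores reduced glutathione, measured 239.9, 301 and 295 in control and 343, 333 and 330.3 in STZ. All 3 STZ values of Gsr were higher, with a log2 fold change of 0.27, SE 0.18 and adjusted p = 0.551. Of the 4 members of synthesis and recycling, Gsr lay wholly above and Gclc wholly below control, and none passed the test (1 at an unadjusted p under 0.05 by limma).

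The soluble glutathione S-transferases, all cytosolic classes except the mitochondrial and peroxisomal Gstk1, formed the largest family, with 16 single genes of which 14 were tested. Their summed values were 19851, 17623 and 14181 in control and 24225, 29420 and 24896 in STZ, and the groups did not overlap. Most of that difference was the difference in Gstm2. It lies at chr2:203548674-203553380 on rn4, and its 250 bases before the transcription start, at chr2:198316918-198317167 on the minus strand of GRCr8 (sequence from RefSeq), are shown because it was one of the 2 genes that passed, with CCAAT boxes in capitals.
Gstm2: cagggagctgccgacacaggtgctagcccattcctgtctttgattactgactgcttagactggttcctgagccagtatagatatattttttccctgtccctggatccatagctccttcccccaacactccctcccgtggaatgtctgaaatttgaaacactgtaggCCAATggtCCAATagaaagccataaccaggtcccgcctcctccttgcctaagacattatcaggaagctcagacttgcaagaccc
Gstm2 measured 6525, 5874 and 5531 normalized counts in control and 12161, 17392 and 14021 in STZ. The lowest STZ value was far above the highest control value, and the spread was wider among the STZ rats. The log2 fold change was 1.27 (SE 0.23), with an adjusted p of 0.0204 by limma. The call was lost without control replicate 2 (adjusted p = 0.123), without STZ replicate 2 (0.0953) and without replicate 3 of both groups (0.0686), while the log2 fold change stayed between 1.13 and 1.39 in all 17 other settings. It was also lost with no filter (0.0577) and in limma without the trend (0.109).

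The mu class genes lie together on rn4 chromosome 2, from the start of Gstm5 at 203456121 to the end of Gstm4 at 203610817, and conjugate a broad range of electrophiles. Gstm1 measured 944, 1185 and 771 in control and 1259, 2459 and 1410.4 in STZ (log2 fold change 0.78, SE 0.27, adjusted p = 0.184). Gstm4 measured 234, 194 and 263 in control and 347, 414 and 313 in STZ (0.64, SE 0.20, adjusted p = 0.140). Gstm5 measured 181, 166 and 111 in control and 214, 208 and 231 in STZ (0.54, SE 0.22, adjusted p = 0.274). In each of these 3 genes every STZ value was above every control value, and none passed the threshold. The other members of the cluster did not share that separation. Gstm7 measured 72.8, 90.8 and 77.9 in control and 80.8, 104 and 103 in STZ (0.25). Gstm3 measured 105, 59.5 and 83.5 in control and 59.4, 42.5 and 75.3 in STZ, the one tested mu gene with a log2 fold change below 0 (−0.48). Gstm6 and Gstm6l stayed at or below 4.45 normalized counts in every library and were not tested.

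Summed over the 8 mu genes, values were 8062, 7571 and 6843 in control and 14125, 20622 and 16159 in STZ. The ratio of Gstm2 to Gstm1 was 6.91, 4.96 and 7.17 in control and 9.66, 7.07 and 9.94 in STZ, so the groups overlapped and the relative weight of these neighbours was not separated. The genes of this cluster are close in sequence, and reads that match several of them equally well are not counted as unique, so the values of each gene carry that uncertainty. The 20 features that span mu genes held between 0.151% and 0.491% of the values in the cluster, and 3 of them were tested without a call.

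The other classes varied in direction. Gstp1, the pi class enzyme, measured 6531, 4366 and 3379 in control and 4019, 2518 and 2726 in STZ, with overlapping groups (log2 fold change −0.60, SE 0.28, adjusted p = 0.348). Control replicate 1 was the highest of all libraries and STZ replicate 1 the highest of its group. The ratio of Gstm2 to Gstp1 was 0.999, 1.35 and 1.64 in control and 3.03, 6.91 and 5.14 in STZ. The values of Gstm2 and Gstp1 were nearly equal in control replicate 1 and lay furthest apart in STZ replicate 2. Gstt3, of the theta class, measured 4504, 4810.0 and 3105 in control and 5018, 5341 and 5342 in STZ. Its groups did not overlap, but the difference was small (0.36, SE 0.22, adjusted p = 0.515).

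In the alpha class, known for detoxification in liver and proximal tubule, Gsta1 measured 71.8, 96.9 and 118 in control and 55.7, 68.2 and 52.2 in STZ. All STZ values of Gsta1 were lower (log2 fold change −0.67, adjusted p = 0.210). Gsta2 measured 64.6, 144 and 145 in control and 97.5, 61.3 and 55.2 in STZ, with overlap. Gsta4, which conjugates the lipid peroxidation product 4-hydroxynonenal, measured 117, 264 and 334 in control and 474, 433 and 241 in STZ, also with overlap. The remaining classes were Gsto1, Gsto2 and Gstk1, whose groups overlapped as well, with log2 fold changes of 0.26, −0.83 and −0.16.

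**Figure D2:**
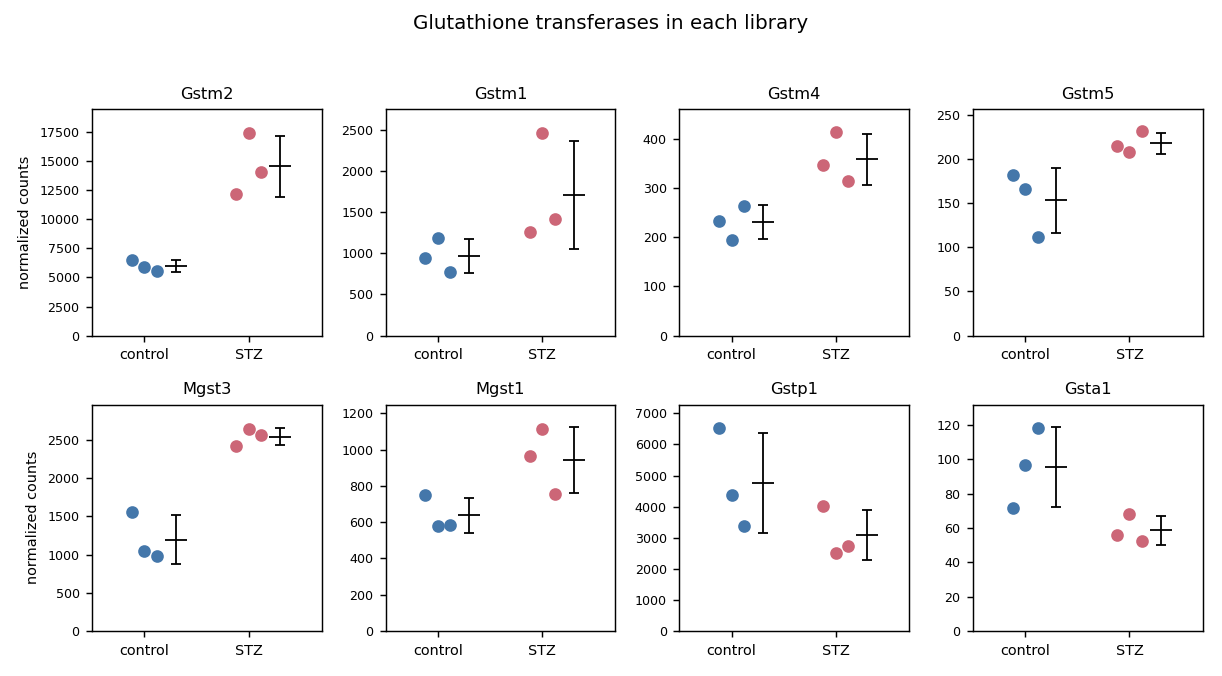
Normalized counts (y axis, from 0, with its own scale in each panel) of 8 transferases in the 3 control (blue) and 3 STZ (red) libraries, in replicate order from left to right, with mean and SD beside each group. The groups separate upward in Gstm2, Gstm1, Gstm4, Gstm5, Mgst3 and Mgst1, overlap in Gstp1 and separate downward in Gsta1.

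The microsomal transferases are membrane enzymes unrelated in sequence to the soluble ones. Mgst3, which has glutathione peroxidase and leukotriene C4 synthase activity, lies at chr13:83038047-83058821 on rn4. As the other gene that passed, its 250 bases before the transcription start are shown (chr13:82080296-82080545, minus strand of GRCr8, RefSeq), with a CCAAT box on the opposite strand (ATTGG) and GC boxes (GGGCGG) in capitals.
Mgst3: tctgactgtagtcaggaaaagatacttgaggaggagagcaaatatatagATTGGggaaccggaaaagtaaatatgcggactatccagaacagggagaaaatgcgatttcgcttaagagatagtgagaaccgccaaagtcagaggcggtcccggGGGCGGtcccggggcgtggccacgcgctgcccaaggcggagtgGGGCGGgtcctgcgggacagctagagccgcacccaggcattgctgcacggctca
Mgst3 measured 1563, 1049 and 976 in control and 2429, 2648 and 2563 in STZ. The STZ values were close together and all above control replicate 1, the highest control. The log2 fold change was 1.12 (SE 0.21), with an adjusted p of 0.0255 by limma. The call was lost without control replicate 2 (adjusted p = 0.139), without STZ replicate 1 (0.0606), STZ replicate 2 (0.108) or STZ replicate 3 (0.0743), without replicate 3 of both groups (0.0974) and in limma without the trend (0.165). The log2 fold change stayed between 0.98 and 1.33 in all 17 other settings.

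Mgst1, which protects membranes of the endoplasmic reticulum and mitochondria, measured 750.4, 577 and 587 in control and 965, 1116 and 753 in STZ. The groups were separated by the narrow gap between control replicate 1 and STZ replicate 3, and the difference did not pass (log2 fold change 0.56, SE 0.21, adjusted p = 0.221). Mgst2, another enzyme with leukotriene C4 synthase activity, measured 476, 326 and 365 in control and 383, 386 and 437 in STZ. Its groups overlapped and its direction turned with the libraries used (log2 fold change 0.063, and −0.055 without control replicate 2). The ratio of Mgst3 to Mgst2 was 3.29, 3.21 and 2.67 in control and 6.33, 6.86 and 5.87 in STZ, with little spread within either group. Over the 3 genes the summed values were 2223 ± 490 in control and 3893 ± 222 in STZ (SD, n = 3 each).

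The glutathione peroxidases split by member. Gpx2, an epithelial peroxidase best known from the gut, measured 1938, 1472 and 1049 in control and 2579, 2018 and 2210.5 in STZ. Every STZ value was higher (log2 fold change 0.65, adjusted p = 0.220). Gpx4, which reduces lipid hydroperoxides in membranes, measured 888, 899 and 532 in control and 580.3, 504 and 414 in STZ. Control replicate 3 lay among the STZ values (log2 fold change −0.60, adjusted p = 0.256). The ratio of Gpx2 to Gpx4 was 2.18, 1.64 and 1.97 in control and 4.44, 4.00 and 5.34 in STZ, without overlap. Gpx3, the secreted plasma form, measured 28.7, 70.2 and 36.7 in control and 94.7, 37.6 and 26.1 in STZ. Its groups overlapped and its direction was not stable (log2 fold change 0.11, and −0.41 without STZ replicate 1). Of the 5 tested peroxidases none passed, and 3 had an unadjusted p under 0.05 by limma.

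Gpx7 and Gpx8 are peroxidases of the endoplasmic reticulum that take part in oxidative protein folding. Gpx8 (chr2:44424008-44427603 on rn4) measured 976, 988 and 698 in control and 637, 488 and 487 in STZ. All STZ values were lower (log2 fold change −0.72, SE 0.21, adjusted p = 0.116), and Gpx8 passed under 4 of 17 other settings. Gpx7 measured 118, 146 and 108 in control and 106, 106 and 75.3 in STZ, so the gap between the groups was narrow (−0.38, adjusted p = 0.486).

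Some other members of that compartment also had lower STZ means. Txndc16, a thioredoxin-domain protein of the endoplasmic reticulum lumen (chr15:21025091-21098461), measured 257, 324 and 225 in control and 137, 160.2 and 155 in STZ. The groups were well separated (log2 fold change −0.82, SE 0.20), but the adjusted p was 0.0642 by limma, and the threshold was passed under 6 of 17 other settings. Prdx4, the peroxiredoxin of the endoplasmic reticulum (chrX:61499139-61516283), measured 734, 651 and 547 in control and 530.2, 498 and 503 in STZ (−0.33, adjusted p = 0.450). Txndc12, a small luminal oxidoreductase, had a log2 fold change of −0.29 with overlapping groups. These 5 members were grouped by location after the values were seen, as a short list that may not hold every member of the compartment. In this list 5 of 5 had a log2 fold change below 0, with a median of −0.38. In 4 of them the STZ values lay wholly below control, where the share of all features tested was 10.3%. None of the 5 passed the test, and 2 had an unadjusted p under 0.05. As the group was picked with its values known, these counts describe it and are not a test. Mgst1, given above, was not in the group, and its STZ values were all higher. Txndc15, a further thioredoxin-domain member left out of the group, had a log2 fold change of 0.42 with overlapping groups. A mitochondrial matrix group picked in the same way had 1 of 5 members wholly below control, with a median of −0.16. Folding oxidoreductases of the endoplasmic reticulum outside the members did not all share the direction. Ero1l had every STZ value higher (log2 fold change 1.199, adjusted p = 0.121), and Pdia3 and P4hb overlapped at 0.32 and −0.23.

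Superoxide dismutases remove superoxide in the mitochondrial matrix (Sod2), the cytosol (Sod1) and outside the cell (Sod3). Sod2 (chr1:41862998-41870327 on rn4) measured 375, 348 and 219 in control and 176, 159 and 162 in STZ. All STZ values lay below control replicate 3, the lowest control, and were close together. The log2 fold change was −0.88 (SE 0.23), with an adjusted p of 0.0767 by limma, and the threshold was passed under 6 of 17 other settings. Sod1 measured 839, 899 and 618 in control and 636, 537 and 550.1 in STZ, where STZ replicate 1 lay above control replicate 3 (−0.44, adjusted p = 0.336). The ratio of Sod2 to Sod1 was 0.447, 0.387 and 0.355 in control and 0.277, 0.297 and 0.294 in STZ, again without overlap. Sod3 stayed between 12.9 and 21.1 in all libraries. Catalase (Cat), which breaks down hydrogen peroxide in peroxisomes, measured 702, 751 and 421 in control and 1189, 669.6 and 606 in STZ, with STZ replicate 1 apart from the rest (0.37, adjusted p = 0.643).

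**Figure D3:**
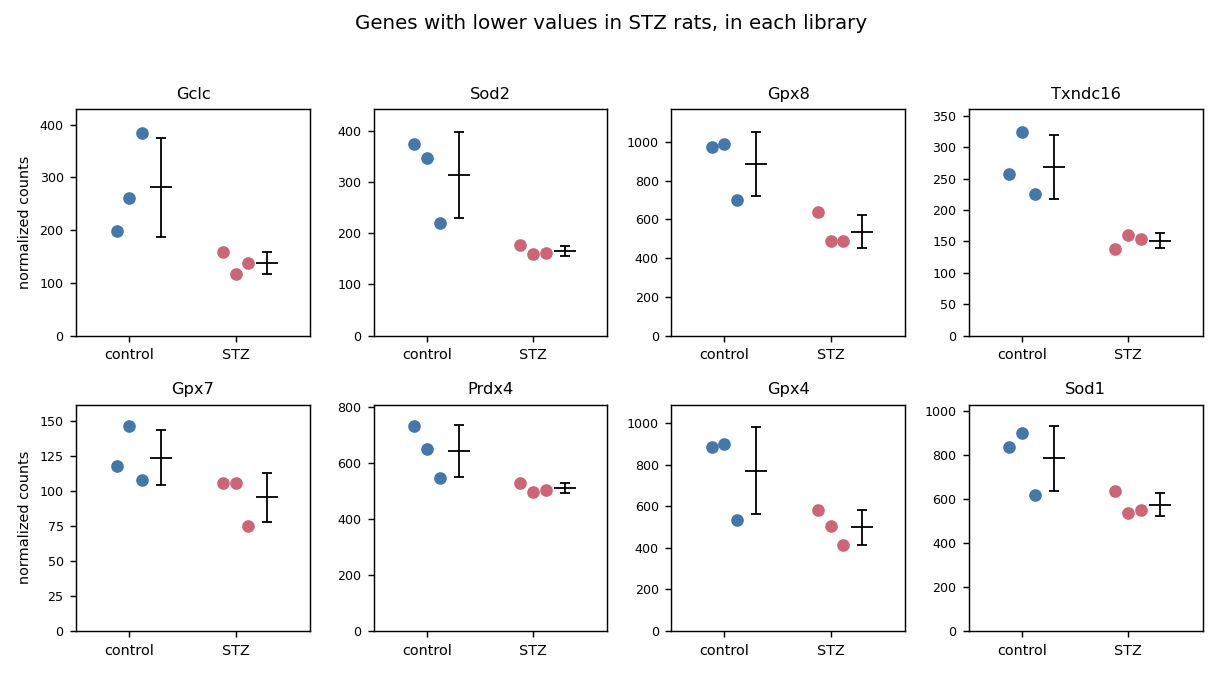
Normalized counts (y axis, from 0, with its own scale in each panel) of 8 genes with lower mean values in STZ rats, in the 3 control (blue) and 3 STZ (red) libraries, in replicate order from left to right, with mean and SD beside each group. In Gclc, Sod2, Gpx8, Txndc16, Gpx7 and Prdx4 all red points lie below all blue points, and in Gpx4 and Sod1 the lowest blue point, control replicate 3, lies among the red ones.

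In the peroxiredoxins, thiol enzymes that reduce hydrogen peroxide, the groups overlapped in all members but Prdx4. Prdx1, a cytosolic form, measured 16368, 10027 and 13509 in control and 18417, 18101 and 13449.7 in STZ, and STZ replicate 3 lay between control values (log2 fold change 0.34, adjusted p = 0.656). Prdx2, also cytosolic, measured 2987, 2604 and 2389.8 in control and 2435, 2691 and 2283 in STZ. Prdx6, which reduces phospholipid peroxides, measured 2266, 2283 and 1632 in control and 2246, 1600.3 and 1947 in STZ. Both overlapped, with log2 fold changes of −0.10 and −0.09, and that of Prdx6 turned to 0.039 without STZ replicate 2. Prdx3, of mitochondria, overlapped at −0.16. Prdx5 had a single high library, with 519, 677 and 435 in control and 1161, 295 and 449 in STZ. None of the 6 peroxiredoxins passed, and none had an unadjusted p under 0.05 by limma.

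Thioredoxins reduce protein disulfides with electrons that thioredoxin reductases take from NADPH. Txn1, the cytosolic thioredoxin, measured 2170.3, 1651 and 1351 in control and 1503, 1275 and 1375 in STZ (log2 fold change −0.29, adjusted p = 0.601). Its reductase Txnrd1 measured 239, 246 and 324 in control and 354, 308 and 300.2 in STZ (0.26, adjusted p = 0.620). Neither gene separated the groups. Txnip, the thioredoxin-binding protein whose transcription is known to follow glucose, measured 1276, 912 and 1074 in control and 787, 704 and 1603 in STZ. Here 2 STZ libraries lay below and 1 above every control library (log2 fold change −0.16, adjusted p = 0.893, and 0.061 without STZ replicate 2). Txndc17, a small cytosolic relative of thioredoxin, measured 1493, 1236 and 1047 in control and 1175, 1078 and 878 in STZ (−0.27). Of the 14 single genes in this family, Txndc2 and Txndc8 were too low to be tested. The 12 tested genes gave 0 calls by limma, with 1 at an unadjusted p under 0.05, and in 11 the groups overlapped.

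Glutaredoxins remove glutathione from protein thiols. Glrx1, the cytosolic form, measured 223, 234 and 154 in control and 326, 316 and 246 in STZ. All STZ values were higher, with a small gap between control replicate 2 and STZ replicate 3 (log2 fold change 0.55, SE 0.22, adjusted p = 0.260). Glrx3 and the mitochondrial Glrx5, which act in iron-sulfur cluster handling, overlapped at 0.24 and −0.39, and Glrx5 stayed at or below 18.9 normalized counts.

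The regulators themselves did not separate. Nfe2l2 (Nrf2) measured 1238, 1027 and 946 in control and 936, 801 and 999.8 in STZ (log2 fold change −0.23, adjusted p = 0.668). Keap1 measured 36.9, 33.6 and 53.4 in control and 95.6, 39.6 and 38.1 in STZ, and its direction rested on STZ replicate 1 (0.37, and −0.057 without it). These are transcript levels and do not measure Nrf2 protein or its activity. Nqo1, a quinone reductase and well-known Nrf2 target, measured 1096, 847 and 1011 in control and 1471, 2181 and 1248 in STZ. All STZ values of Nqo1 were higher (0.70, SE 0.23, adjusted p = 0.165). Hmox1, the inducible heme oxygenase and also an Nrf2 target, measured 44.1, 35.1 and 21.1 in control and 37.1, 10.9 and 38.1 in STZ, with overlap (−0.34, and 0.23 without STZ replicate 2). Hmox2, the constitutive form, overlapped at −0.16.

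The letters of the antioxidant response element core, TGACNNNGC or GCNNNGTCA on the opposite strand, were searched in the 250 bases before each transcription start (GRCr8, RefSeq). Of the 60 single-gene members, 52 matched a promoter. The core was found in 9 of these 52 (17.3%), against 10.1% of all 33469 promoters, and these 9 were Gpx2, Gstm5, Gstm7, Gstp1, Gclm, Sod2, Prdx1, Txnrd1 and Hmox2. The windows are shown for the 3 whose groups did not overlap (Gpx2, Gstm5 and Sod2) and, as examples of the rest, for Gstp1 and Gclm, with the core in capitals, written 5′ to 3′ on the strand of the gene.
Gpx2 (chr6:101230034-101230057, minus strand): tacctggtttcGCTAAGTCAttct
Gstm5 (chr2:198219645-198219675, plus strand): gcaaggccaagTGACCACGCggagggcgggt
Gstm5 (chr2:198219705-198219735, plus strand): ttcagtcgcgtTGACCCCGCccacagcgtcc
Gstp1 (chr1:210769747-210769777, minus strand): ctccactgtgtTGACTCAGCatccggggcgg
Gclm (chr2:213031952-213031982, plus strand): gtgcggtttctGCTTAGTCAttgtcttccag
Sod2 (chr1:50050184-50050214, minus strand): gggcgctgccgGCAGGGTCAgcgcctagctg
Gpx2, Gstp1, Gclm and Sod2 carried 1 core each and Gstm5 carried 2, of which the second overlapped a GC box on the opposite strand (CCGCCC). The 2 genes that passed the test, Gstm2 and Mgst3, had no match in this window. Of the 9 genes with a core, all tested, Gpx2 and Gstm5 had STZ values wholly above and Sod2 wholly below the control values, so genes with the core lay in both directions. Among the 40 tested genes without it, 8 lay wholly above and 5 wholly below. The GC box GGGCGG (either strand) was found in 67.3% of the 52 member promoters and 30.5% of all, and the CCAAT box in 44.2% and 34.0%. Of the 52 member genes 49 were tested, while the 33469 promoters were taken whether or not their gene was tested. The shares for the core and both boxes therefore compare unlike sets of genes. A match describes these letters only, and sites outside the window were not searched.

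Genes around the glutathione system were taken from further lists. Of the genes for glutathione supply, export and turnover, 19 of 22 were found and 17 tested, with 0 calls by limma and 3 at an unadjusted p under 0.05. Of the NADPH supply genes, 9 of 12 were found and tested, with 0 calls and 2 at an unadjusted p under 0.05. Within this list Idh1, the cytosolic isocitrate dehydrogenase, measured 8714, 7140.2 and 6306 in control and 12061, 14342 and 10136 in STZ (log2 fold change 0.72, adjusted p = 0.169). All STZ values of Idh1 were higher without passing the test. Of the Nrf2 partners and other stress response targets, 24 of 29 were found and 21 tested, with 0 calls and 1 at an unadjusted p under 0.05.

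Of the oxidant-producing enzymes, 17 of 23 were found and 11 tested, and 1 was called (9.09%), against 2.1% of all features tested. At an unadjusted p under 0.05 by limma there were 4 (36.4%), against 14.7% of all features tested. Hao2, a peroxisomal hydroxyacid oxidase that releases hydrogen peroxide, fell from 402, 694 and 630.0 in control to 239.6, 126 and 129 in STZ (log2 fold change −1.82, SE 0.29, adjusted p = 0.00980). Of a list of other redox-related genes, not all of them protective, 22 of 32 were found and tested, and 2 (9.09%) were called in opposite directions. At an unadjusted p under 0.05 by limma there were 8 (36.4%), with the same shares of all features as above. Mt1a, a metallothionein that binds zinc and copper, fell from 2188, 1437 and 1523 to 833, 706 and 641 (−1.22, SE 0.21, adjusted p = 0.0160). Its neighbours Mt2A and Mt3 also had every STZ value below every control value, with log2 fold changes of −1.09 (adjusted p = 0.0712) and −1.51 (0.0696). Vnn1, a pantetheinase that yields cysteamine, rose from 189, 191 and 146 to 677, 649 and 308 (1.56, SE 0.29, adjusted p = 0.0212). The part of the proximal tubule, whose markers are given above, in the values of Hao2 and Vnn1 was not tested.

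**Figure D4:**
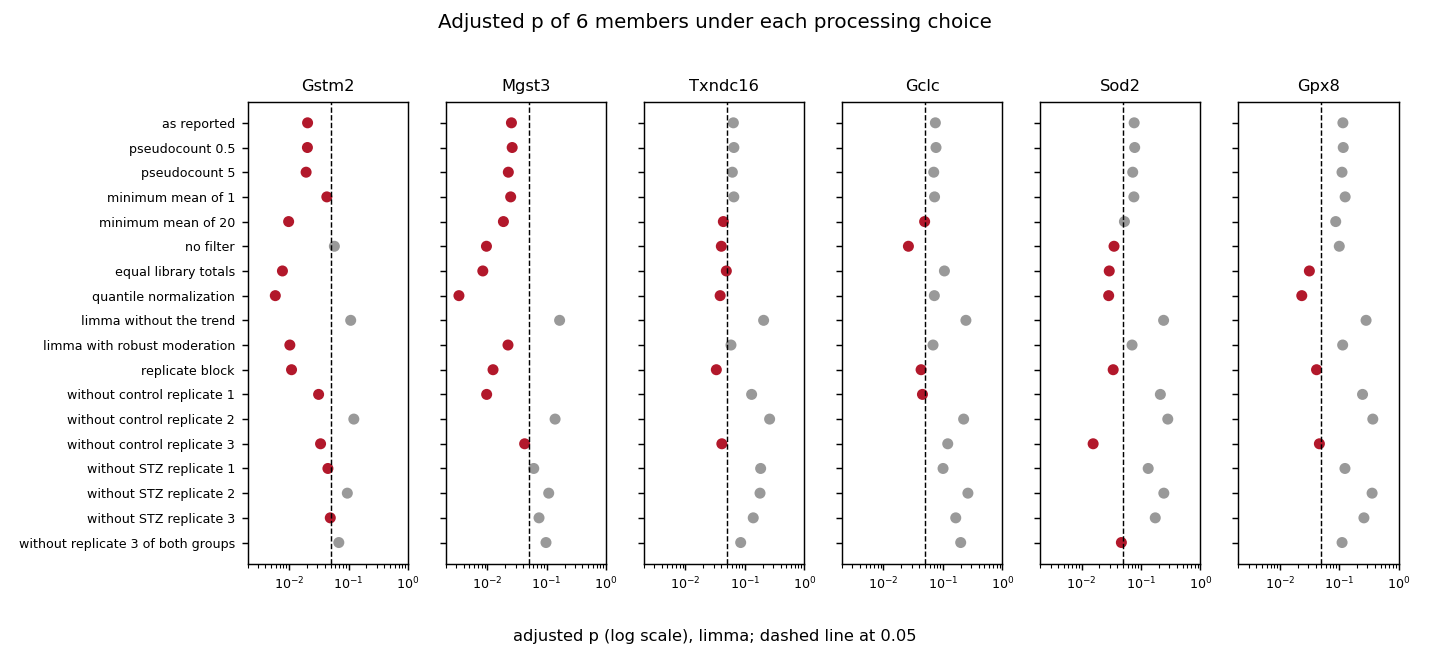
Adjusted p (x axis, log scale, limma) of the 6 members with the lowest adjusted p, as reported and under 17 other processing settings (y axis), with the threshold of 0.05 as a dashed line. Red points lie under the threshold. Gstm2 passes in 12 and Mgst3 in 11 of the 17 other settings, Txndc16 and Sod2 in 6, and Gclc and Gpx8 in 4.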

How the data were processed

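IM tip RNA of 3 control and 3 STZ rats was sequenced as PCR-amplified cDNA. The authors used STAR 2.3.1t for alignment to rn4 and the Ensembl RGSC3.4 annotation to count uniquely mapped reads per gene. The use of strand in counting is not given in the sources used here. The deposited signal of each feature is a normalized count, made by the authors with DESeq 1.16.0. Each value was within 0.001 of a whole multiple of a single step per library, and this step gave the reads on genes. Molecular identifiers were not used, so PCR copies are counted as reads.

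Values were compared with limma 3.58.1 in R 4.3.3 after a log2 transform with a pseudocount of 1, with a trend of the prior variance on intensity, for features with a mean of at least 5. P-values were adjusted by Benjamini-Hochberg over all features tested, and the threshold was 0.05. They set the difference against the spread between the libraries of a group, each from a different rat. In the STZ group this spread also holds lane. The test was checked on simulated data. Members, gene lists and the other settings were chosen with earlier results of these data known. Named genes were members that passed, members whose groups did not overlap, the 3 highest of each family, and a set list of central genes. Others are named only by their log2 fold changes. Some genes are not reported here. Deposited columns left unused numbered 0. Promoter sequences came from RefSeq (GRCr8). Python 3.11.15 with pandas 2.3.3, numpy 2.4.6 and matplotlib 3.10.9 made the tables and plots.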

Additional observations from a re-analysis of the deposited data

How the results depend on the processing

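The count of members called was 2 in the comparison as reported and in 4 other settings (pseudocounts of 0.5 and 5, a minimum mean of 1, and robust moderation). It was 4 with a minimum mean of 20 (2 higher, 2 lower) and with no filter (1 and 3), 5 with equal library totals (2 and 3), 6 with quantile normalization (3 and 3) and 0 in limma without the trend, where 10 members had an unadjusted p under 0.05. Leaving out a library gave between 0 and 5 members, with 0 without control replicate 2 (13 at an unadjusted p under 0.05), 0 without STZ replicate 2 (9), and 5 without control replicate 3. Without replicate 3 of both groups it was 1, Sod2. The count over all features was 283, and it was 522 with quantile normalization, 31 in limma without the trend, and between 86 and 341 with a library left out (185 without control replicate 1, 104 without control replicate 2, 145, 86 and 163 without STZ replicates 1, 2 and 3). It was 160 without replicate 3 of both groups. The cause was not tested, but fewer libraries were used in the last of these settings.

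Both groups are numbered 1 to 3. For control and STZ rats with the same number, the deviations from their own group's mean correlated with r = 0.395, −0.061 and 0.323. These values are across 9315 genes, which are not independent replicates. Pairs with different numbers ran from −0.472 to 0.220, so the values of numbers 1 and 3 were the highest. The paper names a paired t-test for its quantitative PCR but does not say which rats were paired. The comparison as reported did not take the numbers to pair the rats, and whether they do was not tested. With the replicate number as a block, 7 members (Gstm1, Gstm2 and Mgst3 higher, Gclc, Gpx8, Sod2 and Txndc16 lower) and 561 of all features were called. By this measure not every library was closest to its own number, since control replicate 2 correlated most with STZ replicate 1 (r = 0.107).

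Of 678 pairs of a named member and a setting, 634 kept direction and side of the threshold, 11 lost and 22 gained the call, and 11 reversed, in 7 members. With a library left out, the log2 fold change ran from −0.41 (without STZ replicate 1) to 0.50 for Gpx3 (−0.16 without control replicate 1), from −0.055 (without control replicate 2) to 0.22 for Mgst2, from −0.057 (without STZ replicate 1) to 0.59 for Keap1, and, each time with the highest value without STZ replicate 2, from −0.63 to 0.23 for Hmox1, from −0.25 to 0.039 for Prdx6, from −0.53 to 0.061 for Txnip and from −0.23 to 0.10 for Sod3. Sod3 was also above 0 without control replicate 3 and without STZ replicate 1 (0.051 and 0.050), and Mgst2 was at −0.035 without replicate 3 of both groups. The median log2 fold change of all features was −0.02 with equal totals and −0.01 with quantile normalization. Tests on counts with edgeR and DESeq2 were planned if whole reads could be recovered and were not run. The steps of STZ replicates 2 and 3, 0.989 and 1.004, lay so near 1 that the criterion used for recovery did not accept these libraries, although all their values were whole multiples of the step. With 3 rats per group, a miss of the threshold does not show that a gene did not differ.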
